A study of Mus musculus with 16 samples.

Results

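10 genes of MHC class II antigen presentation were followed in CD11b+ brain cells: H2-Aa, H2-Ab1, H2-Eb1, H2-DMa, H2-DMb1, Cd74, Ciita, Cd80, Cd86 and Cd40. They were taken by name from a count table of 24421 gene rows, in which all 10 were found and all 10 were among the 14565 genes tested. The cells came from weaned female C57BL/6J mice kept for 1 month on a control diet (CON, n = 4 libraries), on a low-fat, low-protein diet (MAL, n = 5), or on that same malnourished diet with repeated oral gavage of a mix of E. coli and Bacteroidales species (MAL-BG, n = 7). CON and MAL mice received PBS gavages, so that bacterial exposure separates MAL-BG from MAL, while diet and bacteria together separate MAL-BG from CON. The labels name cortical tissue and the study's methods whole cerebra, and CD11b selection keeps microglia together with other myeloid cells. No source says that a library is 1 animal, so the spread between libraries may be in part technical.

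MHC class II molecules display peptides from endocytosed proteins to CD4+ T cells. The alpha and beta chains assemble in the endoplasmic reticulum with the invariant chain CD74, whose remnant in the groove is exchanged for peptide by the H2-DM heterodimer in late endosomes. The transactivator CIITA is brought to class II promoters by factors bound at conserved X and Y boxes, and interferon-gamma is its best known inducer. CD80 and CD86 are the ligands of CD28 and CTLA-4 that accompany the peptide signal, and CD40 receives CD40 ligand from T cells. Microglia of the healthy brain carry little class II, which is more abundant on border macrophages, dendritic cells and B cells.

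The promoters show what these genes share in sequence. The 5 class II genes lie together on chromosome 17 (GRCm38, GENCODE annotation), with H2-Aa at chr17:34282744-34287823, H2-Ab1 at chr17:34257689-34269419, H2-Eb1 at chr17:34305867-34316674, H2-DMa at chr17:34119541-34139101 and H2-DMb1 at chr17:34153072-34160230. RefSeq promoter entries (GRCm38.p6, 250 bases before to 50 after the start) were matched for 5 of the 10 genes, H2-Aa, H2-Eb1, H2-DMa, H2-DMb1 and Cd80, in 6 entries. The inverted CCAAT letters of the Y box, ATTGG, begin 48 bases before the start of H2-Aa, 59 before that of H2-Eb1 and 61 before that of H2-DMb1. The 100 bases around these letters are shown because the chains and the peptide exchanger moved in different directions under TMM scaling. They are chr17:34287847-34287946 (minus strand), chr17:34305733-34305832 (plus strand) and chr17:34153055-34153154 (plus strand), read in the direction of the gene with ATTGG in capitals.
H2-Aa: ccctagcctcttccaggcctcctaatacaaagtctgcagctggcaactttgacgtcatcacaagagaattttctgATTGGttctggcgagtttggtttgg
H2-Eb1: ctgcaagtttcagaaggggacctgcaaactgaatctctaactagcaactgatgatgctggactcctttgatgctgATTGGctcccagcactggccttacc
H2-DMb1: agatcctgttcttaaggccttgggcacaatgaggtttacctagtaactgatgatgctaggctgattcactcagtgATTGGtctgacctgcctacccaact

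Searched on both strands, ATTGG was in 37.4% of all 32851 promoter entries, so its presence alone is common. The exact letters AGCAACAG, used for the X box core, were in 2.26% of entries and in none of the 6 member entries. Near spellings were not counted, such as agcaactg in H2-Eb1 and agtaactg in H2-DMb1, which run into the 13-base run below. The search therefore does not show that these promoters lack an X box. H2-Eb1 and H2-DMb1 share the 13-base run aactgatgatgct, 30 and 31 bases before ATTGG, which was found in 3 of the 32851 entries. This run, and the longer letters CTGATTGG held by H2-Aa and H2-Eb1 and by 4.10% of entries, were looked for after the sequences had been seen. 1 of the 2 H2-DMa entries held ATTGG, 198 bases before its start, and the Cd80 entry did not hold it.

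Totals were 10312703 to 13461574 counts in CON, 10864121 to 12819982 in MAL and 14191791 to 18705202 in MAL-BG. Levels are CPM, counts scaled to library size, after TMM scaling, and a gene is called where edgeR's quasi-likelihood test gave an adjusted p under 0.05 with an absolute log2 fold change above 0.58. 5 libraries were the highest of their group and above 2 times its median in a marker list of cells other than microglia. CON replicate 1 and MAL replicate 4 had the highest summed level of 8 border macrophage genes in their groups (577 and 722 CPM, against group medians of 238 and 238). MAL-BG replicate 5 had 11222 CPM of 7 neutrophil genes against a group median of 992, and 1403 of monocyte genes (median 467). CON replicate 1 also had 1207 CPM of neutrophil genes (median 580), and MAL replicate 4 had 307 of dendritic cell genes (median 149). MAL-BG replicate 3 had 13029 CPM of choroid plexus genes (median 4098), 2700 of endothelial genes (median 1219) and 144 of neuronal genes (median 49.5), and was the lowest MAL-BG library for H2-Aa, H2-Ab1, H2-Eb1, Cd74, Ciita, H2-DMa and Cd86. MAL replicate 5 had 445 CPM of neuronal genes (median 134). Replicate numbers are the running numbers of the table's columns.

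The class II genes were called in both directions in MAL-BG. Against CON, 3 of the 10 genes were called higher (H2-DMa, H2-DMb1 and Cd86), beside 11.4% of all genes tested, and 1 was called lower (Ciita), beside 21.7%. Against MAL, 3 were called higher (H2-DMa, Cd80 and Cd86), beside 10.2% of all genes, and 5 were called lower (Ciita, H2-Aa, H2-Ab1, H2-Eb1 and Cd74), beside 20.2%. Between MAL and CON none of the 10 was called and none had an unadjusted p under 0.05, as 0% of the 14565 genes were called by edgeR or by DESeq2. Before adjustment, p was under 0.05 for 212 genes in edgeR and for 241 in DESeq2. Both numbers are below a share of 0.05 of the 14565 genes, the share expected where no gene differs. The lack of calls therefore does not show that MAL and CON are alike, and why so few genes passed was not tested. The edgeR number was 1087 without CON replicate 1, 129 without CON replicate 2, 128 without MAL replicate 1 and 183 to 285 in the other single omissions. The median log2 fold change of the 10 genes was 0.06 against CON and -0.31 against MAL, where the medians over all genes were -0.04 and -0.03. Both MAL-BG comparisons use the same 7 MAL-BG libraries.

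**Figure D1:**
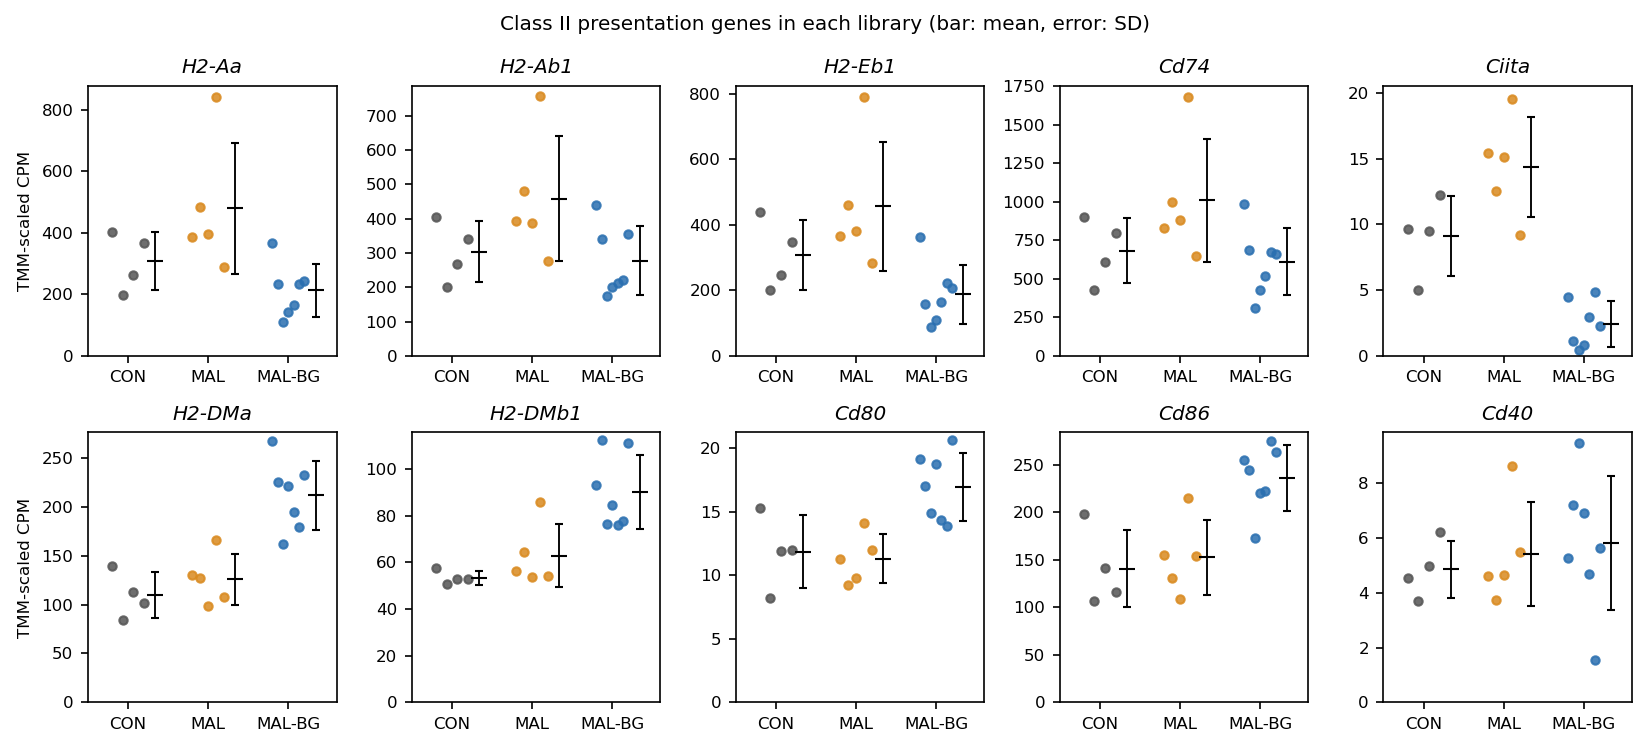
Level of each gene in TMM-scaled CPM (vertical axes, linear from 0) in the CON, MAL and MAL-BG libraries, 1 point per library, with the group mean and SD as the bar beside the points. The 7 MAL-BG libraries lay below all 9 others for Ciita, and MAL replicate 4 is the highest MAL point for every gene.

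H2-Aa encodes the alpha chain of I-A, the class II molecule of this strain. Its level was 403, 196, 263 and 366 CPM in the 4 CON libraries and 386, 483, 396, 840 and 289.6 CPM in the 5 MAL libraries. In MAL-BG it ran from 109 to 368 CPM with a median of 233. 6 of the 7 MAL-BG libraries were below every MAL library, whereas MAL-BG and CON overlapped. H2-Aa fell against MAL by 1.17 on the log2 scale (SE 0.29, adjusted p = 0.00429), and its log2 fold change against CON was -0.53 (SE 0.31, adjusted p = 0.178). In bulk libraries such as these, fewer cells of a class II-bearing type and less RNA per cell cannot be told apart.

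H2-Ab1, the beta chain that pairs with H2-Aa, stood at 404, 201, 266 and 342 CPM in CON and at 392, 479.9, 386, 757 and 276 CPM in MAL. The MAL-BG libraries held 174 to 439.5 CPM with a median of 221, and 4 of them were below every MAL library. The log2 fold change was -0.72 against MAL (SE 0.27, adjusted p = 0.036) and -0.13 against CON (95% interval -0.73 to 0.48, adjusted p = 0.744). The call against MAL rested on the choice of libraries: without MAL replicate 4 the log2 fold change was -0.47 and was not called, and 7 other single omissions also ended the call.

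H2-Eb1 encodes the beta chain of I-E, which has no functional alpha partner in C57BL/6 mice, and the row of the alpha pseudogene H2-Ea-ps was close to 0. H2-Eb1 was at 438, 201, 247 and 346 CPM in CON and at 367, 459, 381, 789 and 284 CPM in MAL. In MAL-BG it was 88.5 to 363 CPM with a median of 165, the lowest median of the 3 chains. 6 of 7 MAL-BG libraries were below all MAL libraries and 4 of 7 below all CON libraries. It fell by 1.28 against MAL on the log2 scale (SE 0.32, adjusted p = 0.00389), and the value against CON was -0.71 (SE 0.33, adjusted p = 0.0918), called only without MAL-BG replicate 1 among the single omissions, at -0.92.

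Cd74, on chromosome 18, encodes the invariant chain. Its CON levels were 900.5, 425, 610.4 and 799.7 CPM and its MAL levels 833, 999, 882, 1684 and 648 CPM. MAL-BG libraries held 313 to 987 CPM with a median of 659.9, which overlapped both other groups. Its log2 fold change was -0.73 against MAL (SE 0.27, adjusted p = 0.0387) and -0.16 against CON (SE 0.29, adjusted p = 0.671). As for H2-Ab1, the call against MAL ended without MAL replicate 4 (-0.47) and in 7 other single omissions.

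Ciita (chr16:10480059-10528418), the transactivator, had the largest fold changes of the 10 genes in the MAL-BG comparisons. It was measured at 9.67, 5.01, 9.53 and 12.3 CPM in CON and at 15.4, 12.5, 15.1, 19.6 and 9.23 CPM in MAL. The MAL-BG libraries held 0.482 to 4.87 CPM with a median of 2.30, on 7 to 82 counts each, where CON and MAL libraries had 54 to 243. All 7 MAL-BG libraries were below all 9 CON and MAL libraries, as for 6.36% of all genes tested. The gap was narrow, with MAL-BG replicate 6 at 4.87 CPM and CON replicate 2 at 5.01 CPM. None of the 10 genes was above all 9, against 6.17% of all genes. Ciita fell by 1.89 on the log2 scale against CON (SE 0.46, adjusted p = 0.00325) and by 2.55 against MAL (SE 0.44, adjusted p = 0.000314). It was called in both comparisons under every alternative and single omission run. Dexi overlaps Ciita on the other strand, and its log2 fold changes were 0.56 and 0.50, so its counts moved the other way.

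H2-DMa and H2-DMb1 encode the chains of the peptide exchanger, and their fold changes in MAL-BG had the opposite sign to those of the 3 chains under TMM scaling. H2-DMa was at 139, 84.1, 113 and 102 CPM in CON, at 130, 127, 98.1, 166 and 107 CPM in MAL and at 161 to 267 CPM in MAL-BG, with a median of 221. All MAL-BG libraries were above all CON libraries, and 6 of 7 were above all MAL libraries. The share of all genes that separate MAL-BG from CON alone in this way, as H2-DMb1 also does, is not given here. H2-DMa rose 1.93-fold against CON (log2 0.95, SE 0.17, adjusted p = 0.000428) and 1.68-fold against MAL (log2 0.75, SE 0.16, adjusted p = 0.00129), but neither was called when libraries were scaled by microglia markers (0.15 and 0.05). Brd2, which overlaps H2-DMa on the other strand, had log2 fold changes of -0.37 and -0.50.

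H2-DMb1 levels were 57.6, 50.6, 52.8 and 52.8 CPM in CON and 56.2, 64.4, 53.9, 85.9 and 54.1 CPM in MAL. MAL-BG libraries held 76.1 to 113 CPM with a median of 84.8, above every CON library, and only MAL replicate 4 reached into their range. H2-DMb1 rose 1.69-fold against CON (log2 0.76, SE 0.15, adjusted p = 0.000846), a value that was -0.062 on the microglia scale. Against MAL its log2 fold change of 0.52 (SE 0.14, adjusted p = 0.00608) passed the test but not the fold threshold, and reached 0.65 without MAL replicate 4. H2-DMb1 and its near copy H2-DMb2 can share reads, and H2-DMb2 was at 3.12 to 3.91 CPM in the group means.

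Cd86 (chr16:36603869-36666081) was the more abundant of the CD28 ligands. It was at 198, 107, 142 and 117 CPM in CON, at 155, 131, 109, 215 and 154 CPM in MAL and at 173 to 275 CPM in MAL-BG, with a median of 244. 6 of 7 MAL-BG libraries were above all libraries of either other group. Cd86 rose 1.68-fold against CON (log2 0.75, SE 0.19, adjusted p = 0.0049) and 1.55-fold against MAL (log2 0.63, SE 0.18, adjusted p = 0.00883), and the second call ended without MAL replicate 2 (0.57) or 3 (0.52). On the microglia scale the values were -0.043 and -0.066, not called. By flow cytometry, the study found CD11b+ samples to be mainly microglia. It also reports that CD86 and MHC II on microglia were similar across CON, MAL and MAL-BG, in frequency and in intensity. The counts used here measure RNA only, so a change in presentation by these cells was not tested.

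Cd80 (chr16:38455561-38496335) was at 15.3, 8.25, 11.9 and 12.03 CPM in CON, at 11.3, 9.24, 9.80, 14.1 and 12.02 CPM in MAL and at 13.9 to 20.6 CPM in MAL-BG, with a median of 17.0. 6 of 7 MAL-BG libraries were above all MAL libraries. Its log2 fold change against MAL was 0.58 (SE 0.16, adjusted p = 0.009), at the fold threshold itself, and the call ended in 7 of 16 single omissions. Against CON the value was 0.51 (SE 0.18, adjusted p = 0.0264), short of that threshold, and it was called without CON replicate 1, at 0.64.

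Cd40 (chr2:165055627-165072948) was low throughout, at 4.53, 3.71, 4.96 and 6.20 CPM in CON and 4.59, 3.73, 4.64, 8.62 and 5.49 CPM in MAL. MAL-BG libraries ran from 1.54 to 9.44 CPM with a median of 5.64, so the 3 groups overlapped. Its log2 fold change was 0.25 against CON (95% interval -0.49 to 0.999) and 0.10 against MAL (95% interval -0.59 to 0.79), neither called. Both intervals include changes past the fold threshold.

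**Figure D2:**
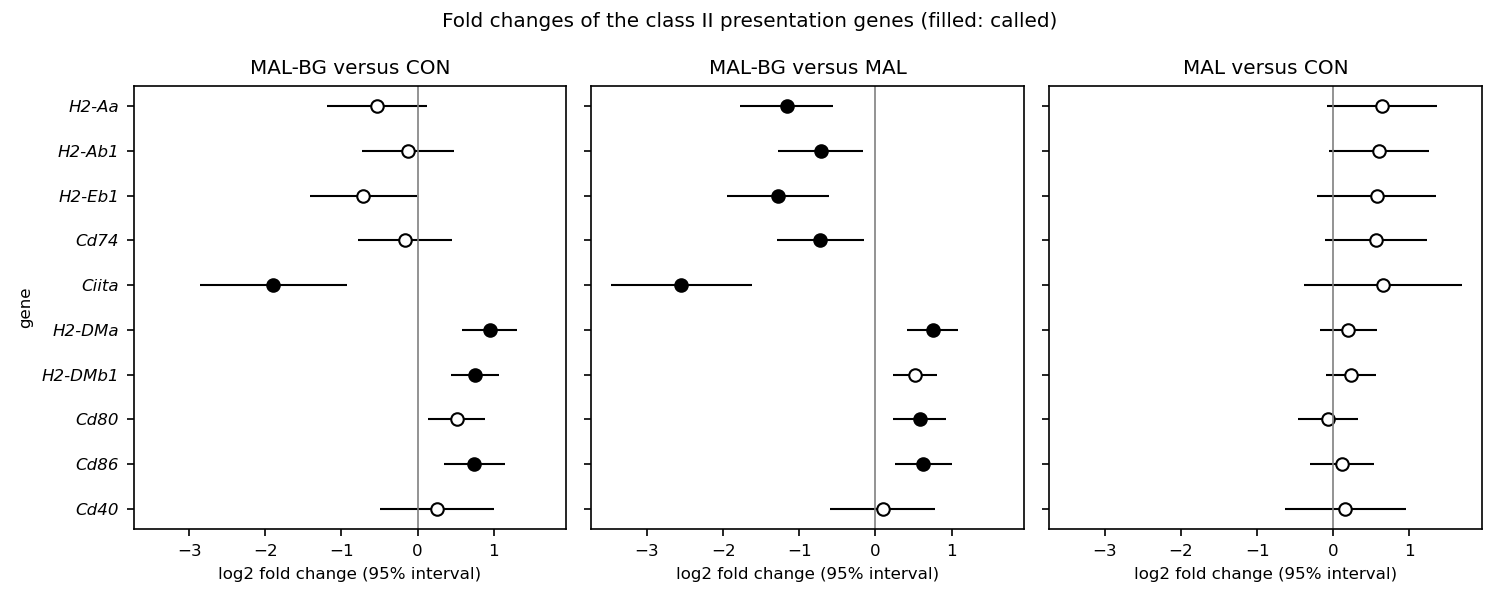
Log2 fold change of each gene (horizontal axis) with its 95% interval in the 3 comparisons, filled where called. The 3 chains, Cd74 and Ciita lie left of 0 and H2-DMa, H2-DMb1, Cd80 and Cd86 right of it in both MAL-BG comparisons under TMM scaling, and all 10 intervals include 0 between MAL and CON.

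Between MAL and CON, 9 of the 10 log2 fold changes were positive. Those of the 3 chains, Cd74 and Ciita were 0.56 to 0.65, each with an adjusted p of 0.999. The MAL libraries thus stood higher than CON in the mean for the genes that were lower in MAL-BG, but none of these differences passed the test.

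Ratios of counts within a library do not depend on how libraries are scaled. H2-Ab1 to Cd74 was tested as the ratio of a chain to its chaperone. Its mean log2 ratio was -1.17 ± 0.06 in CON (SD, n = 4), -1.15 ± 0.07 in MAL (SD, n = 5) and -1.13 ± 0.26 in MAL-BG (SD, n = 7). MAL-BG differed from CON by 0.04 (two-sided exact permutation test, p = 0.824) and from MAL by 0.01 (exact permutation test, p = 0.924), less than the spread in MAL-BG. Cd86 to Cd80 had mean log2 ratios of 3.56 ± 0.20, 3.73 ± 0.17 and 3.80 ± 0.27 in the same order, and MAL-BG differed from CON by 0.24 (exact permutation test, p = 0.17) and from MAL by 0.07 (exact permutation test, p = 0.659). Over the 6 comparisons the adjusted p-values were 0.619 to 0.924.

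3 further ratios were chosen after their values had been seen and are described without a test. There were 0.279 to 0.430 counts of H2-DMa for each count of H2-Aa in CON and 0.198 to 0.371 in MAL, but 0.725 to 1.57 in MAL-BG, with no overlap. For each count of Ciita there were 27.8 to 41.6 counts of H2-Ab1 in CON, 25.4 to 38.6 in MAL and 45.2 to 336 in MAL-BG. Every MAL-BG library thus had less Ciita per H2-Ab1 than every other library. H2-Eb1 to H2-Ab1 was 0.926 to 1.08 in CON and 0.937 to 1.04 in MAL, and 0.470 to 1.003 in MAL-BG, where 6 of the 7 libraries were below all 9 others.

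**Figure D3:**
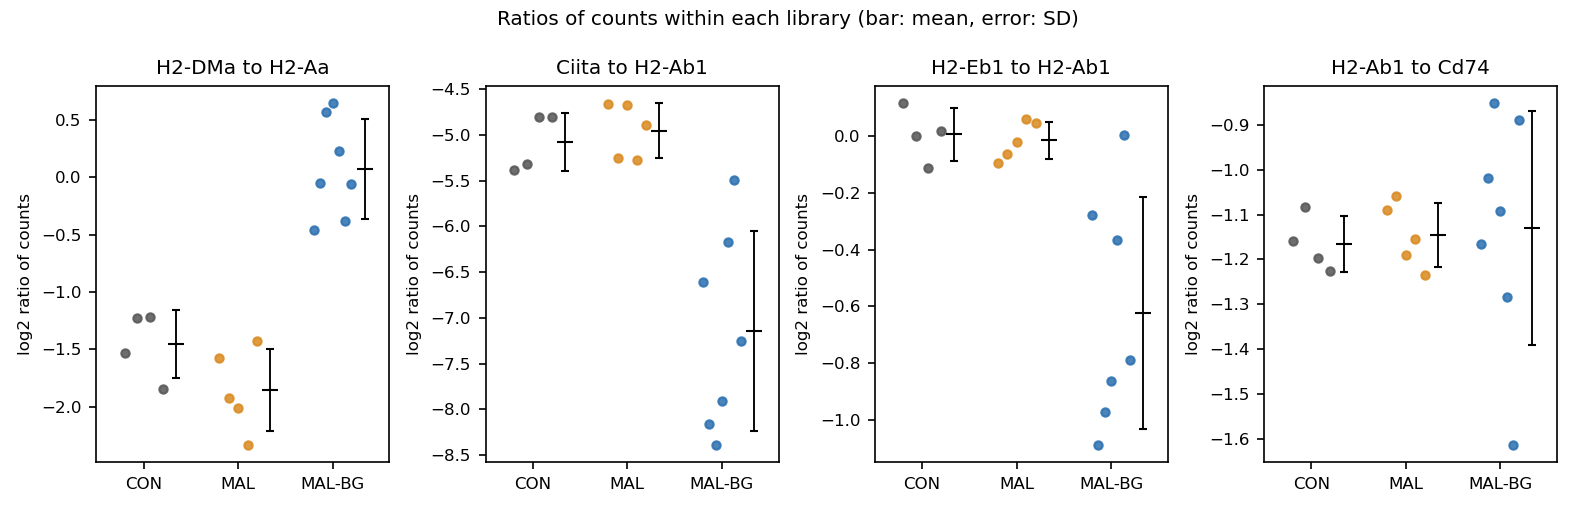
Log2 ratios of counts within each library (vertical axes) for 4 pairs of genes, 1 point per library, with group mean and SD. H2-DMa to H2-Aa and Ciita to H2-Ab1 separate MAL-BG from the other groups, and H2-Ab1 to Cd74 does not.

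The direction of several changes depended on the scaling. When libraries were scaled by 10 microglia marker genes, giving levels relative to microglial RNA, the median of all genes moved to -0.86 against CON and -0.75 against MAL. On that scale H2-DMb1, Cd80, Cd86 and Cd40 had negative log2 fold changes in both MAL-BG comparisons (-0.062, -0.28, -0.043 and -0.51 against CON), and H2-DMa was at 0.15, none of them called. The 3 chains, Cd74 and Ciita were then called lower in both comparisons, from -0.96 for H2-Ab1 to -2.84 for Ciita against CON. These were 5 of 10 genes, beside 62% of all genes called lower against CON and 55.3% against MAL on that scale, and 0.481% and 0.597% called higher. When libraries were scaled by the mean log2 CPM of all genes, the median of all genes was 0.21 against CON and 0.19 against MAL, H2-Ab1 and Cd74 had values of 0.11 and 0.081 against CON, and neither was called against MAL. On that scale 4 of the 10 genes were called higher and 1 lower against CON, beside 22.6% and 16.5% of all genes, and 4 higher and 3 lower against MAL, beside 21.4% and 15.3%. Ciita, H2-Aa and H2-Eb1 were called lower against MAL on all 6 scales, and Ciita against CON on all 6.

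**Figure D4:**
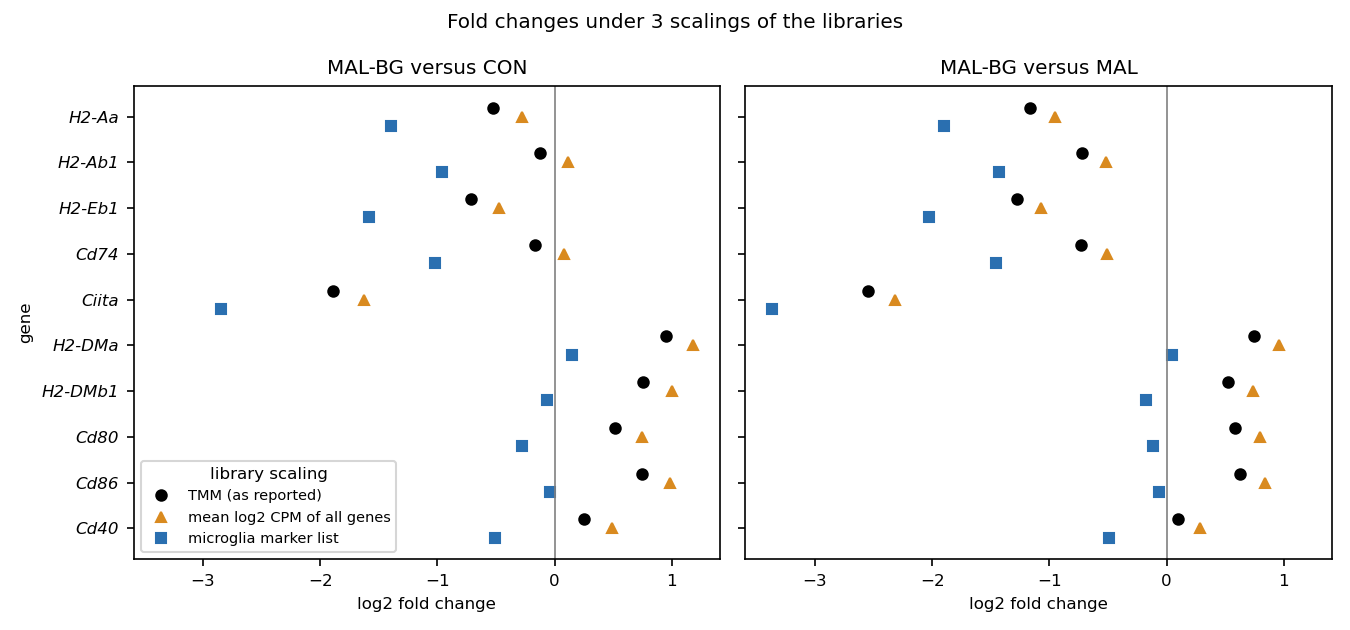
Log2 fold change of each gene (horizontal axis) in the MAL-BG comparisons under TMM scaling, scaling by the mean log2 CPM of all genes and scaling by the microglia marker list. H2-DMa, H2-DMb1, Cd80 and Cd86 lie near or below 0 only on the microglia scale, and Ciita lies left of 0 on all 3.

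Per kilobase of the principal transcript, Cd74 was the highest of the 10 genes in each group, at 485 ± 149 CPM per kb for CON, 716 ± 282 for MAL and 433 ± 154 for MAL-BG (SD, n = 4, 5 and 7). H2-Aa, H2-Ab1 and H2-Eb1 followed in CON at 272 ± 84, 250 ± 73 and 184 ± 63 CPM per kb, which do not differ beyond their spread. In MAL-BG H2-DMa, at 128 ± 21 CPM per kb, ranked above H2-Eb1, at 113 ± 54, a difference within their spread, whereas in CON it was at 66.1 ± 14.0. Cd80, Cd40 and Ciita were the lowest in every group, with Ciita at 1.52 ± 0.50 CPM per kb in CON and 0.405 ± 0.292 in MAL-BG.

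The chains and Cd74 varied together between libraries. Over the 9 CON and MAL libraries the 6 pairs among H2-Aa, H2-Ab1, H2-Eb1 and Cd74 had Pearson's r of 0.990 to 0.997 and Spearman's rho of 0.983 to 1, with exact permutation p-values of 2.76e-06 to 8.27e-06 for r and 5.51e-06 to 4.96e-05 for rho. Without the 2 libraries farthest from the median, r stayed at 0.967 or above. Group means were not removed from these CON and MAL values, and all of these genes had higher means in MAL than in CON. The values of r, rho and p can thus reflect that difference in part. Over the 7 MAL-BG libraries r was 0.793 to 0.994 (exact permutation p-values of 0.00119 to 0.0286) and rho 0.786 to 0.964 (exact permutation p-values of 0.00278 to 0.048). For H2-Ab1 and H2-Eb1 in MAL-BG r dropped to 0.499 without the 2 farthest libraries, so that relation rests on them. The highest adjusted p-values over the 12 relations were 0.0286 for r and 0.048 for rho, both in MAL-BG.

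Other genes of the pathway, in lists given by role, moved in both directions. Under TMM scaling, 11.4% of all genes were called higher and 21.7% lower against CON, and 10.2% and 20.2% against MAL. These shares stand beside the TMM counts of called genes in all the pathway and marker lists. Of 8 genes that process the invariant chain and antigen, 4 rose in both MAL-BG comparisons and none fell. Lgmn, an asparaginyl endopeptidase, had log2 fold changes of 1.47 and 1.41 against CON and MAL, and Ctss, the protease that trims the invariant chain, of 0.97 and 0.95, with group means of 3522 ± 559 CPM for CON, 3579 ± 659 for MAL and 6909 ± 1445 for MAL-BG (SD). Ctsl and Ctsz rose as well. The list's median was 0.68 and 0.67. On the microglia scale 1 of the 8, Lgmn, was still called higher in each comparison (0.72 and 0.76), and the other 3 were not called. Of all genes, 0.481% against CON and 0.597% against MAL were called higher on that scale.

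None of the 10 genes of the factors at class II promoters (Rfx5, Rfxank, Rfxap, Nfya and others) was called in either comparison under TMM scaling. On the microglia scale 7 were called lower against CON and 4 against MAL, where 62% and 55.3% of all genes were. Scaled by the mean log2 CPM of all genes, Creb1 (0.71), Crebbp (0.73) and Nfyb (0.74) were called higher against CON and Nfyb (0.67) against MAL. Rfx5, a subunit of the X box factor, was at 42.01 ± 6.16 CPM for CON, 39.6 ± 3.1 for MAL and 44.4 ± 4.6 for MAL-BG. Of 12 genes upstream of Ciita, Ifngr1, an interferon-gamma receptor chain, and Usf1, which binds a Ciita promoter, rose in both comparisons, and Irf1, an interferon-induced activator, fell in both, with log2 fold changes of -1.20 and -1.13. Irf1 was at 305 ± 68 CPM for CON, 290.4 ± 74.7 for MAL and 132 ± 20 for MAL-BG. Jak2 fell by 0.61 against MAL, and was at -0.39 and not called when scaled by the mean log2 CPM of all genes.

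H2-Oa, a chain of the H2-O modulator of H2-DM, rose (log2 0.79 and 0.86), and its partner H2-Ob had values of 0.46 and 0.22, not called. Cd83, which stabilises class II and CD86 at the surface, had log2 fold changes of -1.78 and -0.88 and fell from 1115 ± 205 CPM in CON and 596 ± 289 in MAL to 325 ± 115 in MAL-BG. Among 10 tested co-signaling ligands, 4 rose and 2 fell against CON, and 3 rose and 2 fell against MAL. Vsir (VISTA, listed as 4632428N05Rik), Cd276 and Nectin2 (listed as Pvrl2) rose in both, and Tnfsf9, the 4-1BB ligand, fell by 2.51 against CON and had a value of -1.68 against MAL. Of 8 tested genes of CD40 signaling, Nfkb2 and Traf1 fell and Traf5 rose in both comparisons, and Traf2 rose against CON. On the microglia scale Irf1, Cd83, Tnfsf9, Nfkb2 and Traf1 were again called lower in both comparisons, on a scale where 62% and 55.3% of all genes were called lower, while Ifngr1, Usf1, H2-Oa, Vsir, Cd276, Nectin2, Traf5 and Traf2 were not called, with H2-Oa at -0.040 and Traf2 at -0.21 against CON. Scaled by the mean log2 CPM of all genes, Cd83 (-0.64) and Nfkb2 (-0.41) were not called against MAL.

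**Figure D5:**
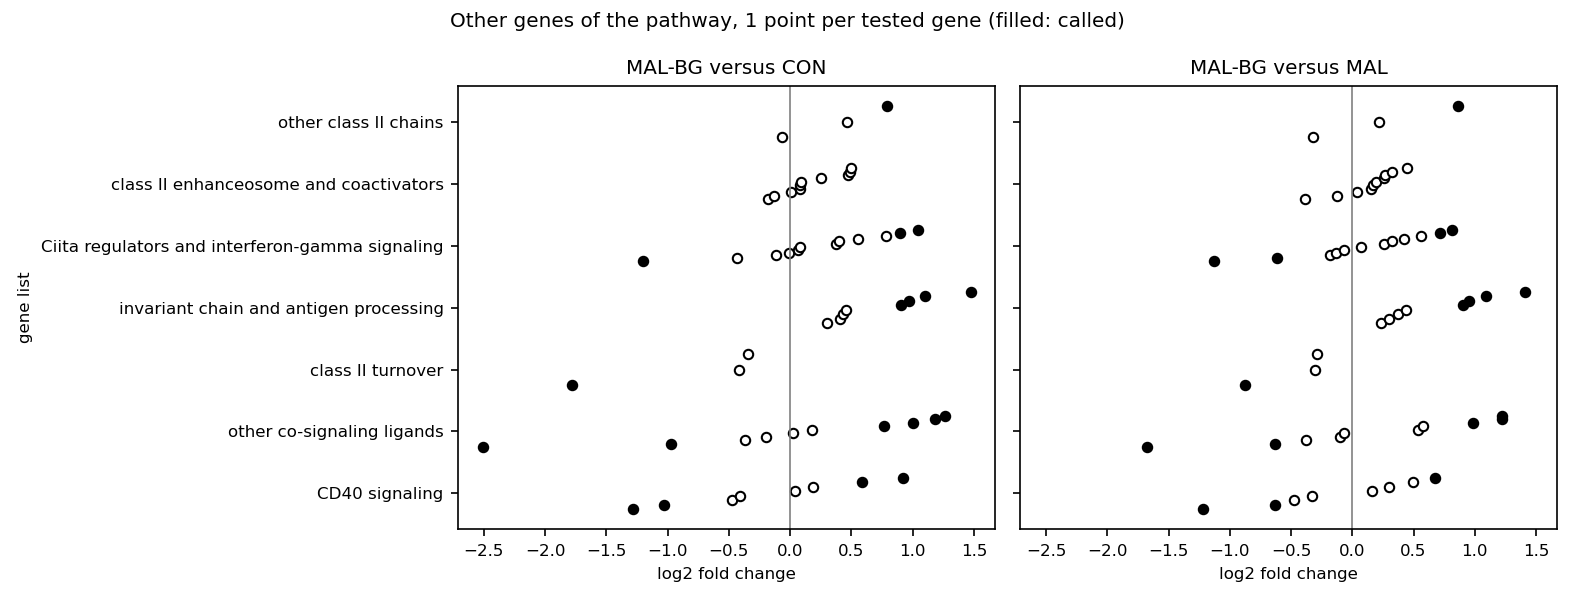
Log2 fold change (horizontal axis) of each tested gene in 7 lists around class II presentation, filled where called. All 8 processing genes lie right of 0 and no promoter factor is filled under TMM scaling.

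Marker lists of microglia and other cells moved in both directions in MAL-BG, and their part in the results was not tested. The summed level of 10 microglia markers was 16791 to 27482 CPM in CON, 17462 to 29763 in MAL and 36824 to 50272 in MAL-BG, with 6 of 10 called higher in each MAL-BG comparison. The 8 border macrophage markers summed to 174 to 577, 232 to 722 and 221 to 328 CPM, with 0 of 8 called against CON and 1 lower against MAL. The 9 dendritic cell markers summed to 86.1 to 182, 106 to 307 and 107 to 189 CPM, with 3 of 8 tested called lower and 1 higher against CON and 5 lower against MAL. Cd209a, Zbtb46 and Ccr7 were lower in both comparisons, with Cd209a at 25.5 ± 7.6, 30.4 ± 9.0 and 13.3 ± 4.9 CPM, and Flt3 and Clec9a were lower against MAL. Batf3 was at 22.5 ± 9.3, 26.2 ± 11.4 and 41.6 ± 14.7 CPM and was called higher against CON (0.88). Clec10a (0.41 and -0.41) and Itgax (0.12 and -0.38) were not called. The 7 B cell markers summed to 26.1 to 38.2, 25.5 to 62.1 and 39.1 to 68.0 CPM, with Cd79b higher in both comparisons. Monocyte markers had 2 of 8 lower against CON and 3 against MAL. The 7 choroid plexus markers summed to 10623 to 40959, 4947 to 32241 and 1462 to 13029 CPM, with 7 of 7 called lower against CON and 6 of 7 against MAL. Of 7 neutrophil markers, 6 were called higher in each comparison, with median log2 fold changes of 4.39 and 4.07. Of 6 neuronal markers, 5 were lower against CON and 4 against MAL, and of 6 astrocyte markers 4 were lower in each. Of 4 tested T and NK cell markers, 2 were higher against CON and 3 against MAL. Endothelial markers had 2 of 6 higher in each comparison, and oligodendrocyte markers 3 of 6. No marker of these lists was at 0 in every library of a group.

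2 alternatives chosen after seeing the data left out CON replicate 1, MAL replicate 4 and MAL-BG replicate 5, or these with MAL replicate 5 and MAL-BG replicate 3. Each gave 4 of the 10 genes called higher and 1 lower against CON, and 4 higher and 3 lower against MAL. Without the 3 libraries, 17.6% of all genes were called higher and 22.1% lower against CON, and 15.5% and 21.1% against MAL. Without the 5, the shares were 15% and 26.1% against CON and 12.7% and 23.3% against MAL. Cd80 was then called against CON (0.77 without the 3 and 0.71 without the 5) and H2-DMb1 against MAL (0.75 and 0.71). H2-Ab1 (-0.35 and -0.44) and Cd74 (-0.37 and -0.40) were not called against MAL, and neither was Cd83 (-0.75 and -0.21).

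The genes most like H2-Ab1 across the 16 libraries, by Pearson's r of log2 CPM after subtracting group means, were H2-Aa (0.95) and Cd74 (0.93) among the members. Outside them Mthfsl (0.91), Hepacam2 (0.87), Tmem176a (0.87), Tmem43 (0.84) and Tmem176b (0.83) were closest of 13787 genes ranked. H2-DMa and H2-DMb1 followed H2-Ab1 within groups at r of 0.85 and 0.83 although their fold changes in MAL-BG had the opposite sign under TMM scaling, and Ciita at 0.56. The closest to Cd86 were Lair1 (0.95), Letmd1 (0.95), Ly86 (0.94), Cd84 (0.94) and B3gnt7 (0.93). Libraries share depth and cell content, so these values describe likeness only.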

How the data were processed

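Poly(A) RNA of CD11b+ cells was sequenced in 16 libraries. The authors deposited 1 table of raw counts per gene, which HTSeq made from STAR alignments to GRCm38. The strand option of counting is not given in the sources used here. Groups were taken from the column names, since the columns' running numbers match no sample title. The study's batch term was left out, because no source used here gives the batch of a column, so batches were not analysed. The deposited counts were fitted with edgeR 4.0.16 (R 4.3.3), 3 groups in 1 quasi-likelihood fit with TMM scaling, keeping genes that passed 10 counts in 4 or more libraries, and p-values were adjusted by Benjamini-Hochberg over all of them. The fit was also run on simulated counts that held no batches and no differences in cell content, so that run does not bear on their effect here. All 10 members were named, genes of lists by role, and the 5 genes most like H2-Ab1 and the 5 most like Cd86 among genes of at least 1 CPM in the mean. The members and lists were chosen with earlier results of these data known. Ratios used a pseudocount of 0.5 counts. Depth limits low genes such as Ciita and Cd40 most. Alternatives were other scalings, DESeq2 1.42.0, filters, thinning and omission of each library. 27 rows had names turned into dates and were not matched. The values of 2 genes of the lists are not reported here.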

Additional observations from a re-analysis of the deposited data

How the results depend on the processing

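The direction of each of the 10 genes in the 3 comparisons was recomputed under 29 alternatives, 870 values in all, of which 790 kept direction and call, 39 lost the call, 16 gained one and 25 changed sign. Scaling by the microglia markers changed the sign of H2-DMb1 (-0.062), Cd80 (-0.28), Cd86 (-0.043) and Cd40 (-0.51) against CON, of H2-DMb1 (-0.17), Cd80 (-0.11), Cd86 (-0.066) and Cd40 (-0.49) against MAL, and of Cd40 between MAL and CON (-0.014), and left 5 genes called against MAL, all lower. Scaling by the mean log2 CPM of all genes gave 0.11 for H2-Ab1 and 0.081 for Cd74 against CON, and library totals alone gave -0.021 for Cd40 against MAL. Without the 3 libraries highest in border macrophage or neutrophil markers, H2-Ab1 was at 0.17 and Cd74 at 0.11 against CON, and Cd80 at 0.0043 and Cd40 at -0.084 between MAL and CON. Without 5 libraries, H2-Ab1 was at 0.19 and Cd74 at 0.15 against CON and Cd40 at -0.21 between MAL and CON, where 1 of 14306 genes tested was called. The cause was not tested. Over single omissions, 4 to 5 genes were called against CON, 4 to 8 against MAL and 0 between MAL and CON, with 4 called against MAL without MAL replicate 2 and 5 without MAL replicate 3. Over the same omissions the difference in the log2 ratio of H2-Ab1 to Cd74 ran from -0.011 to 0.12 against CON, -0.032 to 0.096 against MAL and -0.0012 to 0.048 between MAL and CON, and that of Cd86 to Cd80 from 0.15 to 0.29, -0.017 to 0.12 and 0.081 to 0.24. Genes not called in the comparison whose sign changed in an omission were H2-Ab1 against CON (-0.29 to 0.024), Cd40 against MAL (-0.069 to 0.31) and, between MAL and CON, Cd80 (-0.21 to 0.063), Cd86 (-0.038 to 0.32) and Cd40 (-0.078 to 0.30). Scaling by all genes' mean raised the genes called higher against CON from 1659 to 3298, and the microglia scale lowered them to 70 with 9025 lower. The counts against MAL were 3120 and 87 higher with 2229 and 8057 lower. No paired analysis was possible because the running numbers of the columns match no title and the labels do not say that a number marks a shared litter, batch or day. At 7 to 82 counts per MAL-BG library, Ciita is the gene whose level depth limits most.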
